A study of Mus musculus with 6 samples.

Results

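The enzymes that write and erase DNA methylation and the core of Polycomb repressive complex 2 (PRC2) were read in CD8+ T cells that lacked the transcriptional inhibitor Id2. The group was given by symbol: the DNA methyltransferase genes Dnmt1, Dnmt3a and Dnmt3b, their cofactor gene Uhrf1, the oxidase genes Tet2 and Tet3, and the PRC2 genes Ezh2, Ezh1, Suz12 and Eed. All 10 were found among the 16749 genes listed in at least 1 of the 6 libraries. The 3 knockout libraries came from C57BL/6 mice with the genotype Cd4creId2f/f, in which Cre driven by Cd4 deletes the floxed Id2 gene, and the 3 WT libraries came from Id2f/f mice with no Cre. Per the series title, mice of both groups bore tumors and had been given oxaliplatin, a platinum drug that crosslinks DNA. The CD8+ T cells were sorted from the tissue labelled iLN. The age of the mice, the tumor and the number of animals behind a library are not given in the labels, so the spread between libraries may be technical. Cd4-Cre is active in the thymus before CD8 T cells form, so it deletes in CD4 T cells too, and Cre was carried by the knockout group alone.

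DNA methylation is copied after each round of replication. UHRF1 binds the half-methylated sites left behind the replication fork and brings in DNMT1, while DNMT3A and DNMT3B place methyl groups on sites that had none and TET enzymes oxidise them as a step toward removal. PRC2 places methyl groups on lysine 27 of histone H3 (H3K27), with EZH2 or EZH1 as the catalytic subunit and EED and SUZ12 as the core that holds it. In CD8 T cells that become effectors, DNMT3A and EZH2 are known for shutting genes of naive and memory cells, and EZH2 is mostly found in dividing cells and EZH1 in resting ones.

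Of the 10 genes, 4 were lower in knockout cells and 0 were higher. The 4 were Uhrf1, Dnmt1, Ezh2 and Eed. Across the 10890 genes tested by edgeR's quasi-likelihood test at an adjusted p under 0.05, 8.77% were lower, 3.14% were higher and 11.9% were called in either direction. DESeq2 and limma also called 0 of the 10 higher, and at an unadjusted p under 0.05 Tet2 and Ezh1 made 2. At that unadjusted threshold 16.1% of all genes tested were lower and 11.5% were higher. The levels of 5 genes, those 4 and Tet2, did not overlap between the groups, which was the case for 32.1% of all genes tested. All levels are given in FPKM, a read number scaled to transcript length and library depth, and every fold change is knockout over WT on the log2 scale from edgeR.

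**Figure D1:**
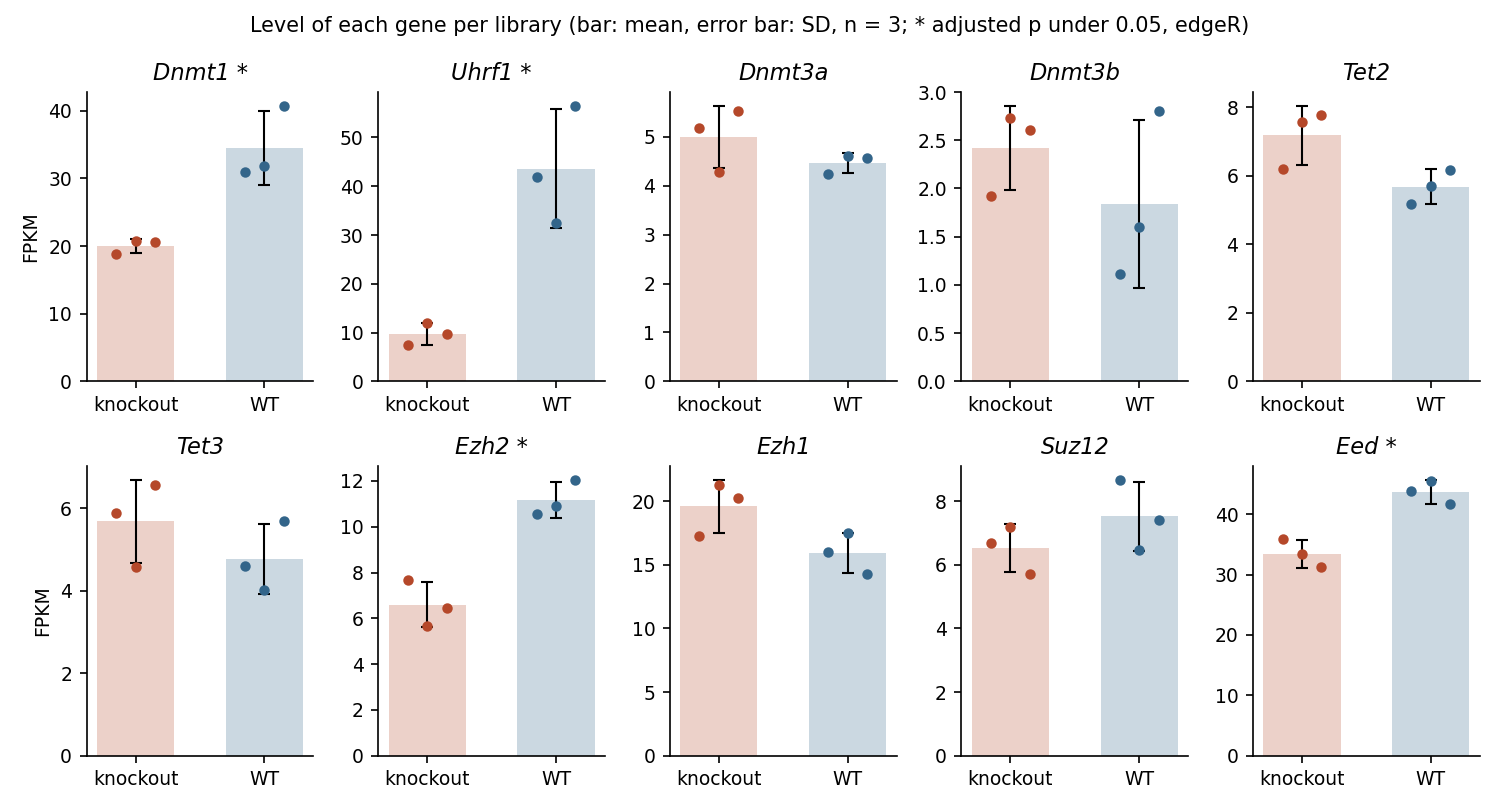
FPKM of the 10 genes in the 3 knockout (red, left) and 3 WT (blue, right) libraries, each dot a library, with bars at the mean and error bars of 1 SD. Dnmt1, Uhrf1, Ezh2 and Eed are lower in all 3 knockout libraries, and the other 6 were not called.

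The libraries held 7990095, 7699181 and 7751207 expected counts in knockout and 8383034, 8495123 and 8307284 in WT. Id2 averaged 2.14 ± 0.485 FPKM in knockout and 222 ± 129 in WT. The summed level of 8 CD8 T cell markers ran between 3334 and 4459 FPKM in knockout and between 3563 and 4122 in WT. The ranges overlapped. Of the 8 markers, 1 was called lower and 0 higher, beside 8.77% and 3.14% over all genes tested. B cell transcripts varied within both groups: the sum of 12 B cell markers was 658, 2816 and 585 FPKM in knockout and 881, 2958 and 3452 in WT. Knockout replicate 2 and WT replicates 2 and 3 were the high ones. All 11 B cell markers tested had a negative fold change (median -0.86, against 0.01 over all genes tested), and 0 were called. A sum of 7 dendritic cell markers ran from 3.79 to 6.82 FPKM in knockout and from 12.7 to 20.6 in WT. Clec9a was listed in no library and counted as 0. The 6 gamma delta T cell markers summed to 44.3 to 66.3 FPKM in knockout and 9.42 to 15.4 in WT. Only 2 of them were tested, and both were called higher (median fold change 1.92), beside 3.14% over all genes tested. The receptor genes Trdc and Tcrg-C1 were listed in no library and counted as 0, which does not tell whether such cells were present. The 6 NK cell markers summed to 31.2 to 77.1 FPKM in knockout and 568 to 1301 in WT. Gzma, which effector CD8 T cells also make, supplied most. Ncr1, which marks NK cells, stood at 0 to 0.18 FPKM. Only 3 of the 6 were tested, with 2 negative fold changes and 1 positive (median -0.15). Of these 3, 1 was called lower and 0 higher, beside 8.77% and 3.14% over all genes tested. Whether NK cells were present was not tested. The sums of CD4 T cell, plasma cell, myeloid and stromal markers overlapped between the groups, but single genes in them were lower in knockout. Of the plasma cell list Jchain (fold change -1.48, adjusted p = 0.00874) and Prdm1 (-2.50, adjusted p = 0.00124), which effector T cells also make, were called, and the sum of that list was mostly Xbp1. Of the stromal list Sparc was called (adjusted p = 0.00568), and of the myeloid list Itgam, at -2.62, was not (adjusted p = 0.0521). Of the dendritic cell list Itgax and Zbtb46 were called lower (adjusted p = 0.000654 and 0.00755). Sparc, Itgam and Itgax reached the minimum level for testing in WT alone. The part of these cells in the results was not tested. A fit with the B cell level as a covariate called the same 4 genes, but such a term over 6 libraries does not separate the transcripts of mixed cells.

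The maintenance pair fell in both of its members. Uhrf1 had the largest change of the 10. It stood at 7.54, 11.89 and 9.72 FPKM in the knockout libraries, against 41.89, 32.39 and 56.5 in the WT libraries, so the highest knockout library was still far below the lowest WT library. Its fold change was -2.19 (SE 0.213, adjusted p = 0.000283), a level 4.57 times lower. Dnmt1, the maintenance methyltransferase, fell less. Its levels were 18.87, 20.75 and 20.55 FPKM in knockout and 30.95, 31.79 and 40.75 in WT, with a fold change of -0.80 (SE 0.117, adjusted p = 0.00194). The knockout libraries lay close together for Dnmt1, while WT replicate 3 stood above the other 2. Both calls held with each library left out.

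The promoters of the 10 genes were read for a sequence that cell cycle factors bind. E2F factors switch on genes for replication, and the letters TTTCCCGC, TTTGGCGC, TTTCGCGC or TTTGCCGC, on either strand, were searched in the RefSeq promoter windows of GRCm38.p6, from 250 bases before a transcript start to 50 after it. Such a match occurred in 4 of the 15 windows of the 10 genes and in 2.26% of all 32851 windows. These shares come from windows of unlike makeup, since all 4 runs of letters contain CG and the median window held 30 CG pairs in the 10 genes and 7 over all genes. The 4 windows belonged to Uhrf1, Dnmt1, Ezh2 and Suz12, so 3 of the 4 genes that fell had one, as did 1 that was not called. The 2.26% is a share of windows, and the share of genes with a match in any window was not counted. A gene with several windows, such as Dnmt1 or Uhrf1, has more places for a match. No match was present in the Eed window. The stretches around the matches are printed here because 3 of the 4 genes that fell share a match of this search, with the match in capitals and each written 5′ to 3′ on the strand of its gene.
Uhrf1, chr17:56304083-56304180, plus strand: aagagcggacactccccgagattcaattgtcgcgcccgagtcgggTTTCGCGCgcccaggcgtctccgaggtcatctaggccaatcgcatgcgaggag
Dnmt1, chr9:20952790-20952873, minus strand: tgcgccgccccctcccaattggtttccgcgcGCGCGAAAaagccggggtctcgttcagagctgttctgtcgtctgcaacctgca
Ezh2, chr6:47595006-47595072, minus strand: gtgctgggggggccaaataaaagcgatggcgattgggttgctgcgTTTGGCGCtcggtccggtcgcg
Suz12, chr11:79992856-79992939, plus strand: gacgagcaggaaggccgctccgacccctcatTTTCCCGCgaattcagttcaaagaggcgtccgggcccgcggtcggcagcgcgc

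In the Uhrf1 window the match began 185 bases before the start and in the Dnmt1 and Suz12 windows 219 bases before it. The Dnmt1 match reads as TTTCGCGC on the other strand, and the same window held another match, TTTGGCGC, 33 bases after the start. In Ezh2 the match began 3 bases after the start. Only 1 of the 3 Dnmt1 windows, the one farthest downstream, and 1 of the 2 Uhrf1 windows had a match. The E box letters CAGCTG and CACCTG, which E proteins, the partners that Id2 holds off DNA, can bind, were present on either strand in 4 of the 15 windows, of Dnmt1, Dnmt3b, Tet3 and Ezh1, and in 32.9% of all windows. The Dnmt1 window with an E box was not the one shown. A match is only a run of letters, and binding was not measured.

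The de novo methyltransferases did not pass the test in either direction. Dnmt3a had 5.18, 4.28 and 5.52 FPKM in knockout and 4.23, 4.61 and 4.56 in WT, overlapping groups with a fold change of 0.15 (SE 0.133, adjusted p = 0.507). Dnmt3b was the least abundant of the 10, at 1.92, 2.73 and 2.61 FPKM in knockout and 1.11, 1.6 and 2.8 in WT. It rested on 65 to 89 reads per knockout library and 41 to 95 per WT library, and its fold change of 0.41 had the largest error of the 10 (SE 0.309, adjusted p = 0.436). The difference between the group means was smaller than the range of the WT libraries.

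Dnmt1 took a smaller share of the methyltransferase transcripts in every knockout library than in any WT library. It made up 73 ± 1.58% of the summed FPKM of the 3 genes in knockout and 84.5 ± 0.824% in WT, and Dnmt3a made up 18.2 ± 2.44% in knockout and 11.1 ± 1.41% in WT (SD, n = 3). The log2 ratio of Dnmt1 to Dnmt3a within a library was 1.85, 2.25 and 1.88 in knockout and 2.84, 2.76 and 3.13 in WT. The groups did not overlap, and the mean ratio differed by -0.92. The exact two-sided permutation test gave p = 0.1, the smallest that 20 splits of 3 against 3 allow, and adjusted over 4 ratios p = 0.2. The ratio of Dnmt3b to Dnmt3a differed by 0.31 with overlapping groups (exact permutation p = 0.4, adjusted p = 0.533).

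**Figure D2:**
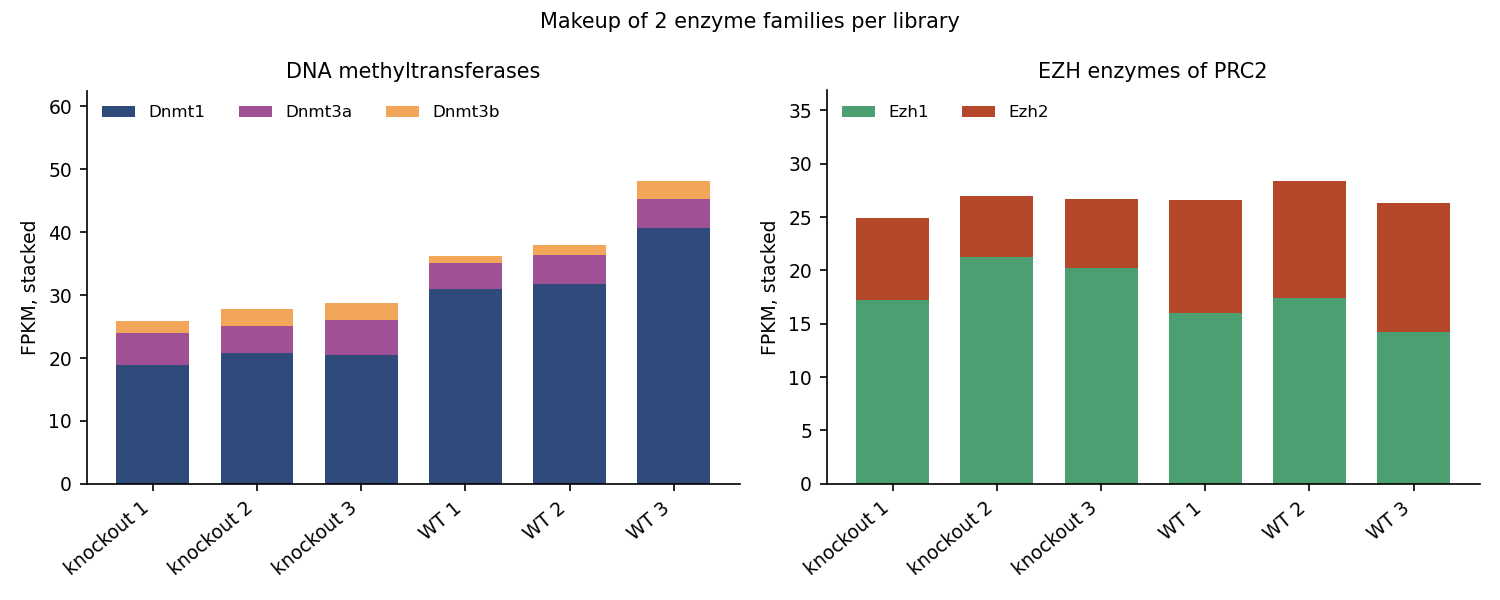
Stacked FPKM of the DNA methyltransferase genes (left panel) and of the 2 EZH genes (right panel), 1 bar per library with knockout libraries left of WT libraries. The methyltransferase sum is lower in knockout through Dnmt1, while the EZH sums of the groups overlap and Ezh2 takes a smaller share of it in knockout.

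The TET genes, whose enzymes begin demethylation, did not pass the test, with positive fold changes for both. Tet2 had 6.19, 7.58 and 7.77 FPKM in knockout and 5.17, 5.7 and 6.18 in WT. Every knockout library lay above every WT library, but knockout replicate 1 and WT replicate 3 were almost level. The fold change was 0.32 (SE 0.119, adjusted p = 0.112). Tet3 had 5.89, 4.59 and 6.57 FPKM in knockout and 4.61, 4.02 and 5.7 in WT, with a fold change of 0.24 (SE 0.174, adjusted p = 0.414). The log2 ratio of Tet3 to Tet2 differed by -0.08 (exact permutation p = 0.7).

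Of the 2 alternative catalytic subunits of PRC2, Ezh2 fell. It had 7.66, 5.68 and 6.45 FPKM in knockout and 10.55, 10.9 and 12.04 in WT, with no overlap and a fold change of -0.77 (SE 0.163, adjusted p = 0.0133). The call ended without knockout replicate 3 (adjusted p = 0.0693) or WT replicate 3 (adjusted p = 0.0623), where the fold change was -0.75 and -0.72. Ezh1 had 17.26, 21.26 and 20.21 FPKM in knockout and 16.02, 17.46 and 14.26 in WT. Its groups overlapped through knockout replicate 1 and WT replicate 2, and the fold change of 0.28 did not pass (SE 0.116, adjusted p = 0.149).

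The summed level of Ezh1 and Ezh2 overlapped between the groups, at 26.2 ± 1.09 FPKM in knockout and 27.1 ± 1.12 in WT (SD, n = 3). Ezh2 made up 30.7%, 21.1% and 24.2% of the sum in the knockout libraries, against 39.7%, 38.4% and 45.8% in the WT libraries. Ezh1 was thus the more abundant transcript in every library of both groups, by a wider margin in knockout. The log2 ratio of Ezh2 to Ezh1 was -1.56 ± 0.367 in knockout and -0.505 ± 0.231 in WT, a difference of -1.05 with groups that did not overlap (exact permutation p = 0.1, adjusted p = 0.2, n = 3 each). A ratio within a library does not depend on how libraries are scaled, but it does not tell which of the 2 genes moved.

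Of the core subunits Eed was called and Suz12 was not, and the difference between them was not tested. Eed, which encodes the subunit that binds methylated H3K27 and stimulates the enzyme, was the most abundant PRC2 gene of the 4. It had 35.84, 33.36 and 31.19 FPKM in knockout and 43.84, 45.6 and 41.63 in WT, a fold change of -0.40 (SE 0.103, adjusted p = 0.0328). Its groups did not overlap, but the change was small and its call ended without knockout replicate 2 or 3 (adjusted p = 0.056 and 0.172) or WT replicate 1, 2 or 3 (adjusted p = 0.101, 0.0856 and 0.0606). Suz12, whose protein stabilises the complex, had 6.7, 7.19 and 5.71 FPKM in knockout and 8.67, 6.48 and 7.42 in WT. These groups overlapped (fold change -0.21, SE 0.16, adjusted p = 0.435).

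Among WT libraries, replicate 3 was the highest for Dnmt1, Uhrf1, Ezh2, Dnmt3b, Tet2 and Tet3, yet the lowest for Ezh1 and Eed. Among knockout libraries, replicate 2 was the highest for Uhrf1, Dnmt1, Dnmt3b, Ezh1 and Suz12 and the lowest for Ezh2, Dnmt3a and Tet3. Over the 6 libraries, the genes with the most similar log2(FPKM + 1) pattern were Kif22, a mitotic kinesin gene, and Ybx3 for Uhrf1 (Pearson r = 0.999 for each), Tspan31 and Pola1, which encodes a subunit of DNA polymerase alpha, for Dnmt1 (r = 0.996 each), Pcmt1 and Eno1, a glycolysis gene, for Ezh2 (r = 0.997 and 0.996) and Ankrd46 and Oard1 for Eed (r = 0.999 and 0.993). For the 6 genes that were not called the nearest were Pds5a and Tbrg4 for Dnmt3a, Nek8 and Mcm3ap for Dnmt3b, Polg and Zfp335 for Tet2, Sars2 and 1300002E11Rik for Tet3, Rps25 and Armcx5 for Ezh1 and Med8 and Mpnd for Suz12. The best of 7739 or 7740 genes over only 6 points is high by construction.

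Cell cycle genes moved in the same direction as the 4 genes that fell. Of 16 S phase genes, 15 were lower and 0 were higher, beside 8.77% and 3.14% over all genes tested. Their median fold change was -1.18, against 0.01 over all genes tested. The ribonucleotide reductase genes Rrm2 and Rrm1 were at -3.28 and -1.68, and Gins2 at -1.76. The summed level of the 16 was 483, 635 and 452 FPKM in knockout and 1131, 1046 and 1363 in WT. Of 12 genes of G2 and M phase, Cenpf reached the minimum level for testing in WT alone. The other 11 were all lower (median -2.90), beside 8.09% over all genes tested with such genes left out. Among them were Ccnb2, Aurkb, Ccnb1 and Birc5. The sum of the 12 was 44, 79 and 39.1 FPKM in knockout and 376, 323 and 530 in WT. No cell cycle gene was called higher by edgeR, DESeq2 or limma. At an unadjusted p under 0.05, 0 were higher, beside 11.5% over all genes tested. The fold change of Uhrf1 lay between the medians of these lists, and those of Dnmt1 and Ezh2 were smaller than either median. WT replicate 3 and knockout replicate 2, the highest libraries of their group for Uhrf1 and Dnmt1, were also the highest for both cell cycle sums and for the B cell sum. Ezh2 was lowest in knockout replicate 2 of its group, and Eed was lowest in WT replicate 3 of its group. The part of cell division in the changes of the 4 genes was not tested, and in these bulk samples fewer cells that make a transcript and less of it per cell cannot be told apart.

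**Figure D3:**
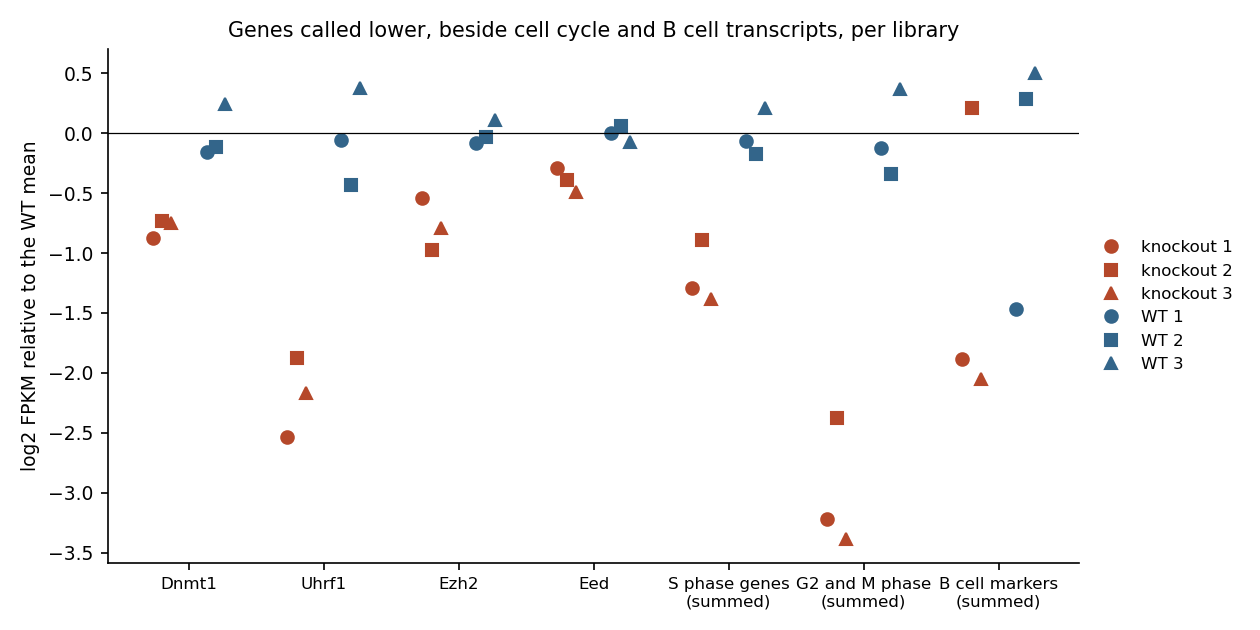
The 4 genes called lower and the summed FPKM of 16 S phase genes, 12 G2 and M phase genes and 12 B cell markers, each as log2 relative to the WT mean, for knockout (red, left) and WT (blue, right) libraries with a symbol per replicate. Both cell cycle sums are lower in all 3 knockout libraries than in any WT library, and the B cell sums of the groups overlap. Knockout replicate 2 and WT replicate 3 are the highest of their group for each of these sums. The part of cell division or of B cells in the 4 genes was not tested.

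Around the methyltransferases, 3 of 17 tested partners and readers were lower and 0 were higher (median -0.06), beside 8.77% lower and 3.14% higher over all genes tested. At an unadjusted p under 0.05 the counts were 5 and 0, beside 16.1% and 11.5%, and DESeq2 and limma also called 0 higher. Hells encodes a chromatin remodeller needed for DNA methylation, and CDCA7 is the protein that brings it to chromatin. Hells had 6.05, 8.48 and 4.93 FPKM in knockout and 15.88, 16.79 and 21.14 in WT (fold change -1.48, adjusted p = 0.000852). Cdca7 had 4.59, 6.85 and 6.31 FPKM in knockout and 16.44, 18.26 and 24.82 in WT (fold change -1.76, adjusted p = 0.000456). For both genes the groups stood well apart, and both calls held with each library left out. Ahcy, which clears the by-product of methyl transfer, was lower by a smaller step (18.4 ± 1.97 FPKM in knockout and 25.4 ± 2.02 in WT, fold change -0.49, adjusted p = 0.0296). It was not called without knockout replicate 3 (adjusted p = 0.158), WT replicate 1 (0.0846) or WT replicate 3 (0.115). The MBD family genes Mbd1, Mbd2, Mbd3 and Mbd4 were not called, nor was Uhrf2, the relative of Uhrf1, at 8 ± 0.0833 FPKM in knockout and 8.24 ± 1.36 in WT (fold change -0.06, adjusted p = 0.837). Tet1 had 1.17, 0.73 and 1.22 FPKM in knockout and 0.54, 1.4 and 0.87 in WT (adjusted p = 0.803). Dnmt3l, a germ cell cofactor, was listed in no library and counted as 0.

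Among accessory PRC2 subunits and H3K27 demethylases, 1 of 9 genes was lower and 1 was higher (median 0.10), with Phf19, which passed the filter through WT alone, left out. Over all genes tested, with such genes left out, 8.09% were lower and 3.12% were higher. Jarid2, a subunit that helps bring PRC2 to chromatin, rose, with 20.56, 23 and 22.36 FPKM in knockout against 14.11, 17.07 and 14.03 in WT (fold change 0.53, SE 0.104, adjusted p = 0.00946). All knockout libraries were above all WT libraries and the call held with each library left out. Phf19, a Polycomb-like subunit, had 0.79, 0.62 and 0.48 FPKM in knockout and 1.48, 1.71 and 2.42 in WT (fold change -1.57, adjusted p = 0.00979). Its direction was fixed by the filter, since no knockout library reached the minimum level, with 14 to 24 reads per knockout library, and the fits without knockout replicate 3 (adjusted p = 0.0578) or WT replicate 3 (0.0516) did not call it. Rbbp7, a histone-binding subunit of several complexes, had 151.99, 130.87 and 130.06 FPKM in knockout and 163.29, 188.38 and 204.69 in WT (fold change -0.44, adjusted p = 0.0333), a call that 7 of 14 other settings ended. These were limma with a pseudocount of 0.1 (adjusted p = 0.0503), the B cell covariate (0.0572), the replicate number as a block (0.0542) and the fits without knockout replicate 2 (0.0628) or 3 (0.169) or WT replicate 2 (0.0756) or 3 (0.127). The demethylase genes Kdm6a and Kdm6b were not called (fold changes 0.25 and -0.09, adjusted p = 0.211 and 0.746).

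The subunits of PRC1, the complex that binds sites marked by PRC2 and places ubiquitin on histone H2A, were mostly not called. Of 23 tested, with the opposing deubiquitinase genes, 1 was higher and 0 were lower, the median fold change was 0.16, and 17 of the fold changes were positive, beside 51.9% over all genes tested. The 1 call is a share of 4.35%, near the 3.14% higher over all genes. At an unadjusted p under 0.05 the counts were 7 higher and 0 lower, beside 11.5% and 16.1%, and DESeq2 and limma called 0 lower. The gene called was Rnf2, which encodes the ubiquitin ligase RING1B, with 61.57, 64.25 and 62.66 FPKM in knockout and 46.77, 50.78 and 43.27 in WT (fold change 0.41, adjusted p = 0.0233). Its groups did not overlap, but it was not called without knockout replicate 1 (adjusted p = 0.0568) or 3 (0.0905) or WT replicate 3 (0.0955). Bmi1, Phc1, Phc3, Asxl1, Asxl2 and Bap1 had fold changes of 0.54, 0.51, 0.38, 0.35, 0.34 and 0.22 and did not pass (adjusted p between 0.0586 and 0.146).

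**Figure D4:**
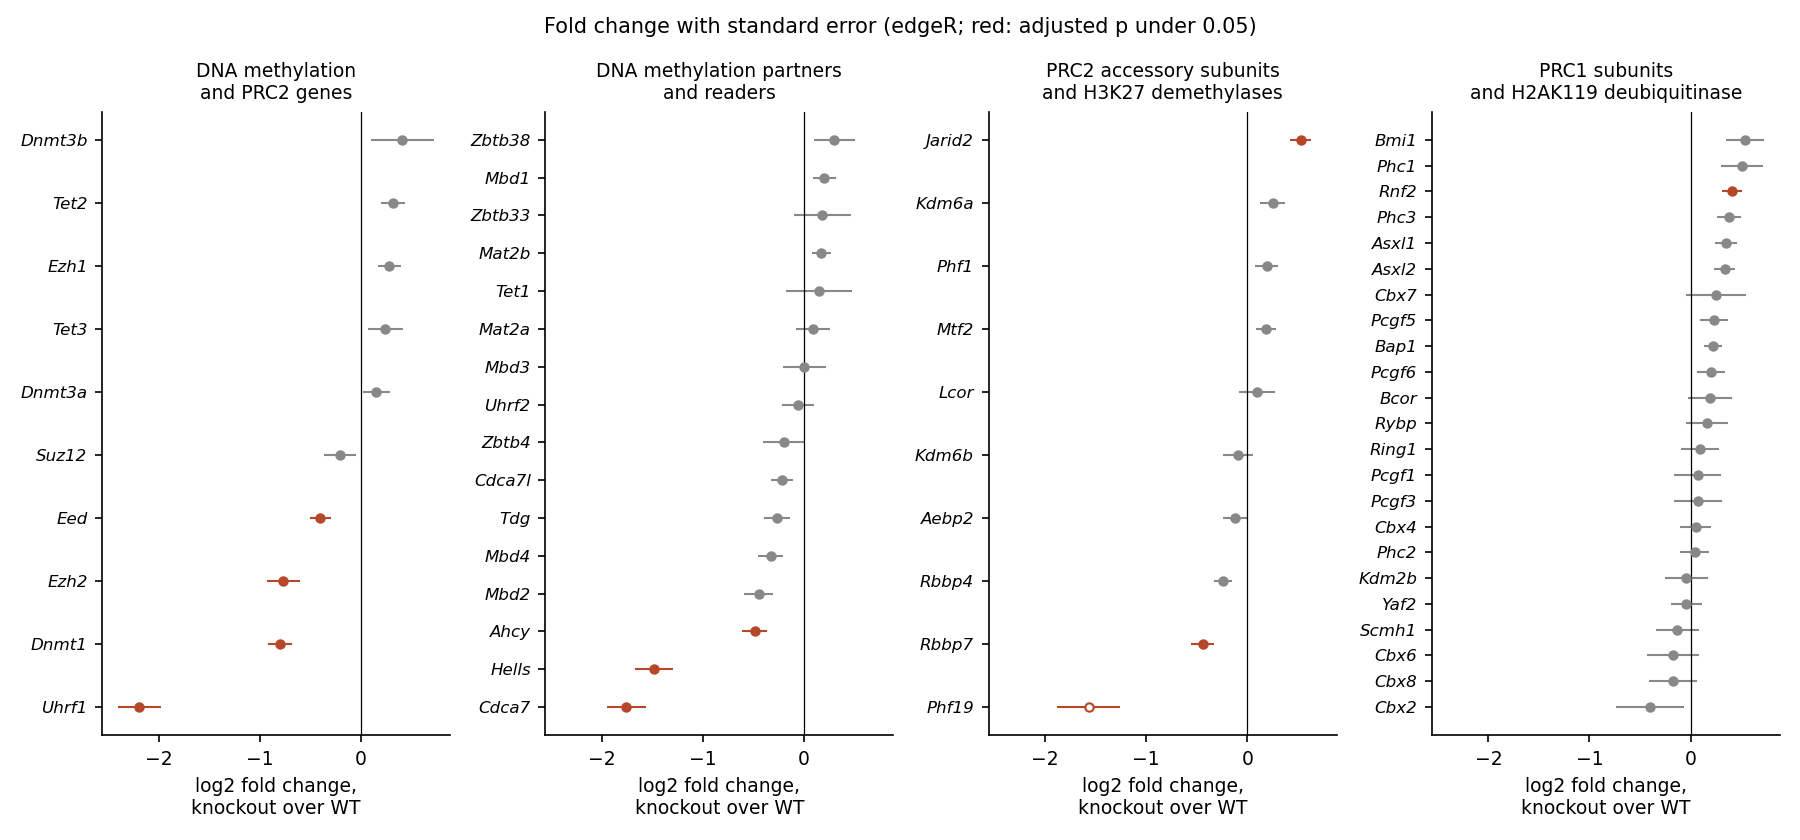
Log2 fold change (knockout over WT, error bars 1 SE, edgeR) of the 10 genes and of tested members of 3 lists around them, 1 gene not drawn, ordered by value, with red for an adjusted p under 0.05 and an open symbol for Phf19, which passed the filter through WT alone. Uhrf1, Cdca7, Phf19 and Hells lie farthest to the left, and Jarid2 and Rnf2 are the only genes shown in red to the right of 0.

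Genes known as targets of these enzymes were read as well. Of 12 genes of naive and memory cells that EZH2 or DNMT3A is known to restrain in effector CD8 T cells, 4 were higher and 0 were lower (median 0.34), beside 3.14% and 8.77% over all genes tested, with 7 higher and 0 lower at an unadjusted p under 0.05, beside 11.5% and 16.1%, and 0 lower by DESeq2 or limma. Id3, a relative of Id2, had 253.13, 331.52 and 272.62 FPKM in knockout and 123.59, 61.41 and 49.47 in WT (fold change 1.84, adjusted p = 0.00354). Bach2, a repressor that holds back effector genes, had 14.3, 13.16 and 14.94 FPKM in knockout and 8.03, 9.12 and 8.11 in WT (fold change 0.74, adjusted p = 0.00158). Both held with each library left out. Tcf7 (fold change 0.64, adjusted p = 0.0375) and Cd27 (0.33, adjusted p = 0.0425) lost their calls in several fits. For Tcf7 these were the fits without knockout replicate 1 (adjusted p = 0.114) or 3 (0.152) or WT replicate 2 (0.0896) or 3 (0.146), and the B cell covariate (0.0553). For Cd27 they were the fits without knockout replicate 1 (0.0978) or 3 (0.15) or WT replicate 1 (0.0739), 2 (0.111) or 3 (0.112), the fit with no filter (0.0528), the B cell covariate (0.0862) and the replicate block (0.0599). The direction of this list was known from these libraries beforehand and is no independent evidence, and other factors regulate its genes too.

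Genes that DNA methylation or PRC2 keeps shut in most tissues stayed near 0. Of 12 germline genes, 5 were listed in no library and counted as 0 (Mael, Asz1, Hormad1, Tex101 and Slc25a31), and none reached the minimum level for testing. The list summed to 1.04, 0.31 and 0.89 FPKM in knockout and 0.39, 0.52 and 0.36 in WT. Most of the knockout sum was Sycp1, with 20, 5 and 13 reads in knockout and 2, 8 and 4 in WT. Of 14 developmental genes, 7 were listed in no library and counted as 0. The developmental list summed to 0.39, 1.26 and 0.56 FPKM in knockout and 1.5, 0.68 and 2.02 in WT. Only Cdkn2b, a cell cycle inhibitor gene, was tested (adjusted p = 0.722).

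The read assignment bears on these values in a few places. All 60 counts of the 10 genes were whole numbers within 0.005, so none of their reads had been divided with another gene. Exons of Dnmt3a, Tet2, Ezh2, Suz12 and Eed overlap a gene on the opposite strand in GENCODE M21, and reads of such a pair cannot be told apart where strand is not used. The mean transcript length that the tables give for a gene, which changes with the mix of its isoforms, ranged by 6.93% over the libraries for Dnmt3b, with its shortest and longest values both in WT, and by at most 2% for the other 9 genes. For Uhrf1 the mean length was 3503 bases in knockout and 3519 in WT.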

How the data were processed

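The deposited tables hold, per the file headers, an expected count, an FPKM value and a transcript length in bases for each NCBI gene number. Per the submitters' processing notes CASAVA, Bowtie2 and RSEM were used with mouse build mm10. Versions and strand use are not given in the sources used here. A gene missing from a table was set to 0. Symbols and coordinates came from RefSeq (GRCm38.p6), where all 10 genes matched.

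After rounding of the expected counts and TMM scaling, edgeR 4.0.16 (R 4.3.3) gave two-sided quasi-likelihood p-values for 10890 genes with at least 1 FPKM in at least 3 libraries. P-values were adjusted over these by the Benjamini-Hochberg method (threshold 0.05). The SE is the size of the log2 fold change over the root of F. Ratios used FPKM + 0.1. Motifs were counted in all RefSeq promoter windows. In simulated data of 10890 genes, the test recovered 87% of the 2-fold and 97% of the 4-fold changes, with 10 false calls among 194. The simulation gave every gene the same dispersion, which real genes do not have, and held no change under 2-fold. The recovery of smaller changes, such as those of Dnmt1, Ezh2 and Eed, was not tested. No libraries of a group were duplicates (chi-square per degree of freedom at least 5.19). Precision rests on 3 libraries per group, and the reads have no molecular identifiers.

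The 10 genes and all lists were chosen with earlier results of these data known. Genes named were the 10, Id2, up to 4 called genes per direction and list with the smallest p, the most similar 2 per gene, and list members that were not called, which were added after seeing their values. The 3 most abundant genes of each marker list also fell under the rule; these lists are given as sums. Alternatives were DESeq2 1.42.0, its size factors, limma 3.58.1 on log2(FPKM + 1) or log2(FPKM + 0.1), no filter, at least 5 FPKM, a B cell covariate, a replicate block and each library left out. Results of some named genes are not reported here. The protein alignment that had been planned was not run.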

Additional observations from a re-analysis of the deposited data

How the results depend on the processing

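In all 8 settings that kept the 6 libraries, the same 4 genes, Dnmt1, Uhrf1, Ezh2 and Eed, were called lower and 0 of the genes tested among the 10 were called higher. Dnmt3a and Dnmt3b were not tested with a minimum of 5 FPKM. With 1 library left out, between 2 and 4 were lower and 0 higher. Dnmt1 and Uhrf1 kept their calls in all 14 settings, Ezh2 lost its call in 2 and Eed in 5. Leaving out 1 library moved the number of all genes lower to between 517 and 1082 and higher to between 84 and 480, partner and reader genes lower to between 2 and 4, PRC2 accessory genes lower to between 0 and 2, PRC1 genes lower to between 0 and 1 and higher to between 0 and 3, and memory genes higher to between 2 and 5. The number of PRC2 accessory genes lower, 2 with Phf19 counted, was 1 with a minimum of 5 FPKM, where Phf19 was not tested, and 1 with limma on log2(FPKM + 0.1) or the B cell covariate. The number of PRC1 genes higher was 2 with DESeq2 or a minimum of 5 FPKM, and of memory genes higher 2 with the B cell covariate. The cause was not tested. The difference in the log2 ratio of Tet3 to Tet2 was reversed, at 0.1, without knockout replicate 2, and its range without 1 library was -0.22 to 0.1. The ratio of Ezh2 to Ezh1 ranged from -1.25 to -0.89, of Dnmt1 to Dnmt3a from -1.05 to -0.81 and of Dnmt3b to Dnmt3a from 0.05 to 0.63.

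Libraries share replicate numbers across groups, and their deviations correlated at 0.072, 0.039 and -0.052 for the same number. Other numbers gave -0.127 to 0.104. With 3 libraries per group such correlations cannot settle whether the numbers pair libraries, and the labels do not say. With the replicate number as a block, 888 genes were lower and 295 higher, 4 of the 10 genes were lower and PRC2 accessory genes lower numbered 1. The ratio differences are the same with the block by construction. Its exact permutation p was 0.25 for the ratios of Ezh2 to Ezh1 and Dnmt1 to Dnmt3a, against 0.1 without it. Each is the smallest p that its test allows, so these values do not tell whether the block changed the result.

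Few reads lay behind Cdkn2b (2 to 15 per library, SE 0.684), Phf19 (14 to 76, SE 0.312) and Dnmt3b (41 to 95, SE 0.309).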

Other observations

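Another silencing system, H3K9 methylation and the HP1 proteins that bind it, was read after the results above were known. Of 9 tested genes of a list of 10, 1 was called lower by edgeR (median log2 fold change -0.33), a count near the 8.77% lower over all genes tested. Cbx5, which encodes HP1 alpha, had 2.4, 4.15 and 3.14 FPKM in knockout and 5.42, 6.36 and 8.55 in WT, with a log2 fold change of -1.08 (adjusted p = 0.00749) and no overlap between the groups. The other HP1 genes, Cbx1 and Cbx3, had log2 fold changes of -0.48 and -0.45 and did not pass (adjusted p = 0.0637 and 0.0513). The methyltransferase genes Suv39h1, Ehmt1, Ehmt2 and Setdb1 were not called, with log2 fold changes of -0.29, 0.21, -0.33 and 0.05.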
